A study of Mus musculus with 19 samples.

Results

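The 10 genes described here mark the endothelium, the cell layer that lines blood vessels. They are Pecam1, Cdh5, Kdr, Tek, Tie1, Emcn, Egfl7, Eng, Esam and Cldn5. Each was taken from the probe sets that carried exactly 1 of these symbols, and each had 1 such probe set, so that 10 of 10 were measured among 22180 genes in all. A further probe set annotated to Egfl7 together with another gene was not used. Endothelial cells are held together by junction proteins and grow and mature under receptors for VEGF, angiopoietins and TGF-beta family ligands. In the spleen they form ordinary vessels in the white pulp and, in the red pulp, line venous channels through which blood cells pass back into the circulation. Several of the genes are also active in blood cells: Pecam1 in leukocytes and platelets, and Eng in macrophages and erythroid precursors.

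The study measured RNA of spleens from 19 mice on Affymetrix arrays to compare spleens with and without conditional expression of human HGAL, an adaptor protein of germinal centre B cells. The HGAL gene sits at the Rosa26 locus and is switched on by Cre. There were 4 tumour-bearing spleens of Rosa26-HGAL+Aid-Cre mice, 5 of Rosa26-HGAL+Mb1-Cre mice and 4 of Rosa26-HGAL+Sca1-Cre mice, with 3 pre-tumour spleens of Rosa26-HGAL+Sca1-Cre mice and 3 spleens of wild-type mice, which carry neither element. Aid is the deaminase of germinal centre B cells, Mb1 is the B cell receptor chain Cd79a, and Sca1 (Ly6a) is a surface protein of haematopoietic stem cells that mouse endothelial cells carry as well. Whether Cre acted in the endothelium was not measured. The labels give the samples as separate biological replicates kept in a conventional facility with exposure to common pathogens, and the ages of the mice were not used here. The labels give the tissue as total spleen while the titles speak of splenic cells, and neither says how cells were prepared. Spleen tissue contains endothelium beside lymphocytes, macrophages and erythroid cells, and in such bulk samples fewer cells of a type and less RNA per cell cannot be told apart. Y-linked genes read above Xist for 1 of the Aid-Cre tumours, 4 of the Mb1-Cre tumours, 2 of the Sca1-Cre tumours, 1 of the pre-tumour spleens and all 3 wild-type spleens. Array medians lay between 5.23 and 5.40, and the number of arrays limits the precision. In Mb1-Cre tumour replicate 2 the mean level of 11 exocrine pancreas genes was 7.60, against 4.70 to 4.75 in the other 4 Mb1-Cre tumours. Wild-type replicate 2 was at 5.93, with the other wild-type spleens at 4.69 and 4.8. Pre-tumour spleens were at 5.33, 5.08 and 4.85, and the Aid-Cre and Sca1-Cre tumours lay between 4.55 and 4.81. Results that turn on Mb1-Cre tumour replicate 2 are given with and without it. The comparisons with wild type are also given without both that array and wild-type replicate 2.

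Promoters are shown to describe the sequence in front of these genes, and whether the genes share control was not tested. RefSeq (GRCm38.p6) promoter windows, 250 bases before to 50 after the start, were matched for 7 of the 10 genes, as 9 windows, since Egfl7 has 3. Capitals mark the letters CAGGAA or CCGGAA on either strand (TTCCTG or TTCCGG as read here), the form bound by ETS factors, a family that includes the endothelial regulator Erg. The windows of the VEGF receptor Kdr (chr5:75978406-75978705, minus strand), the sialomucin Emcn (chr3:137340828-137341127, plus strand) and the TGF-beta co-receptor Eng (chr2:32646345-32646644, plus strand) read, 5′ to 3′:
Kdr: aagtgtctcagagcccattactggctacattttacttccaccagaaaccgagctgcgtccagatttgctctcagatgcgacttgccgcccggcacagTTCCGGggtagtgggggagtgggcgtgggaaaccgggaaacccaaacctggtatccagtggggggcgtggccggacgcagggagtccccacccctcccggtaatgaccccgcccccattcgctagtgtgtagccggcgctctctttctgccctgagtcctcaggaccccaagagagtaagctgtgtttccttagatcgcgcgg
Emcn: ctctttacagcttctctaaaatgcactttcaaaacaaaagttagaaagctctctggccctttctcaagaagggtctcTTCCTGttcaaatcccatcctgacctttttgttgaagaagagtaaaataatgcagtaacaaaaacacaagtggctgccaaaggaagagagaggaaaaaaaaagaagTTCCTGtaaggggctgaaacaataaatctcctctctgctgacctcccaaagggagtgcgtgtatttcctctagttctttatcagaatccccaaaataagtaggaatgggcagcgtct
Eng: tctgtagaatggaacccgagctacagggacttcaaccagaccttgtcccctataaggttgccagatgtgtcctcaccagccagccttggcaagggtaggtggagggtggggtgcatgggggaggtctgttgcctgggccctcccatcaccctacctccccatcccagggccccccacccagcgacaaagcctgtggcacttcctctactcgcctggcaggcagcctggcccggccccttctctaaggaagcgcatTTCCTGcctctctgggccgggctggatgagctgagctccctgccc
The ETS letters occurred in 7 of the 9 windows, and in 41.4% of all 32851 windows of the same length. The windows of 1 gene are not independent of each other. The windows without the letters were that of Cldn5 and 1 of the 3 of Egfl7, and Pecam1, Cdh5 and Esam had no window. The letters occurred 2 times in the Emcn window, and 1 time in each of the Kdr and Eng windows. The GATA letters AGATAA (or TTATCT) were in 1 of 9 windows, against 11.2% of all windows, and the SOX letters AACAAT (or ATTGTT) in 2 of 9, against 10.7%. Such matches describe the sequence and are not shown to be binding sites.

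None of the 10 endothelial genes passed the test in any of the 9 comparisons between groups, with or without Mb1-Cre tumour replicate 2. Few genes of any kind did, as 0.0% to 0.0451% of all genes were called per comparison with all arrays. All values here are log2 RMA levels, and a gene was called at a limma adjusted p under 0.05 over 22180 genes. Levels of different probe sets were not compared with each other. As a guide to background, the 40th percentile of an array lay between 4.72 and 4.90. Tek and Emcn were below it in 18 of 19 arrays, with Mb1-Cre tumour replicate 2 as the exception, and differences of such genes are not exact. Esam was below it in 8 arrays, Cldn5 in 2 and Tie1 in 1, while Pecam1, Cdh5, Kdr, Egfl7 and Eng were above it in all 19. So, of the defining endothelial markers, the vascular cadherin Cdh5 and the VEGF receptor Kdr were measured above background in every spleen, and Emcn and Tek in 1.

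**Figure D1:**
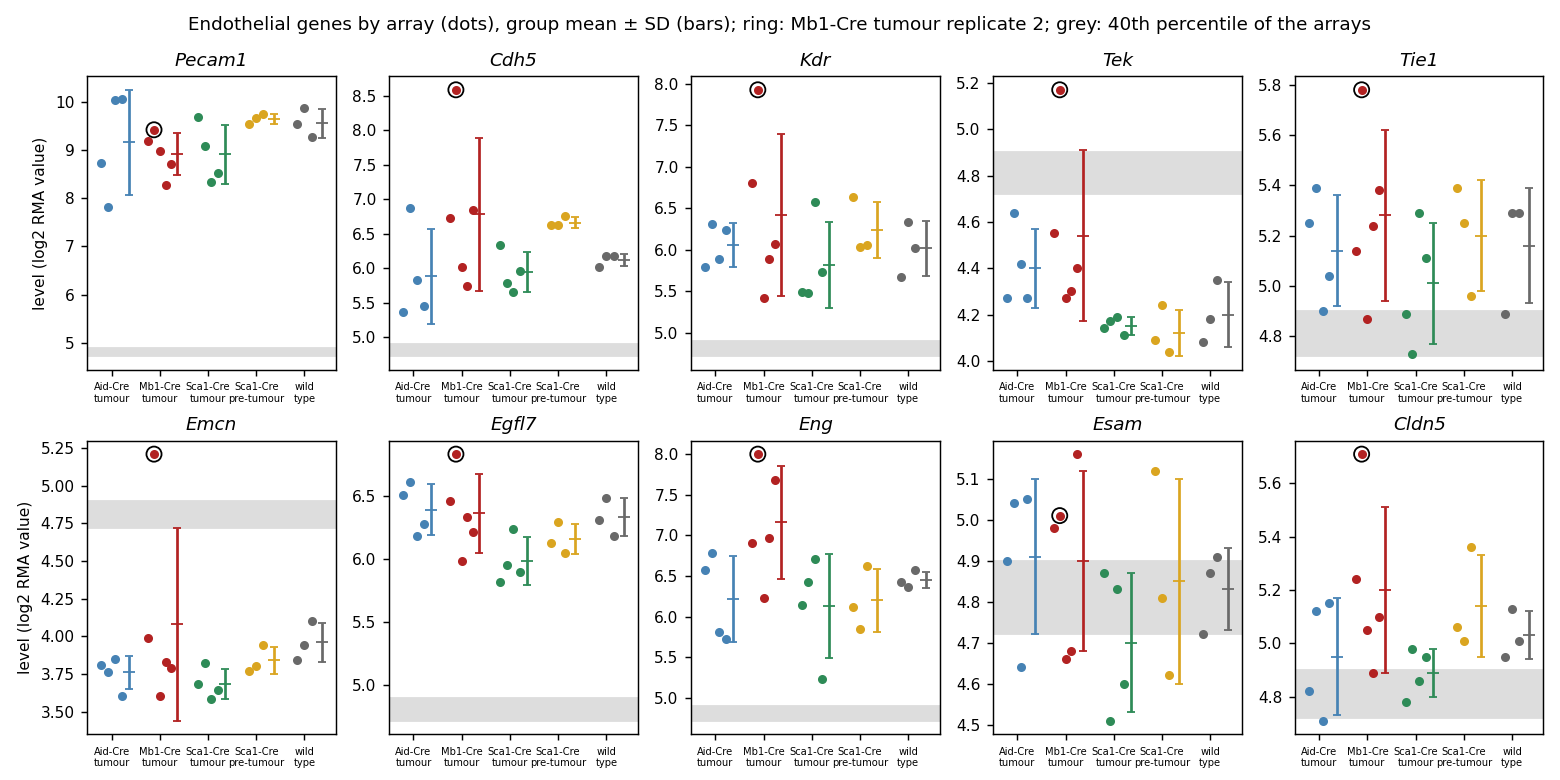
Log2 RMA level of each endothelial gene (vertical axis) in each array (dots, replicates in number order) of the 5 groups (horizontal axis), with the mean ± SD (bars). The ring marks Mb1-Cre tumour replicate 2 and the grey band the range of the arrays' 40th percentiles, and the ringed dot is the highest of 19 arrays in 8 of the 10 panels.

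Kdr, Tek and Tie1 are receptor tyrosine kinases of endothelial cells. Kdr, the main signalling receptor for VEGF-A, had levels of 5.79, 6.31, 5.89 and 6.24 in Aid-Cre tumours, 6.81, 7.93, 5.42, 5.89 and 6.07 in Mb1-Cre tumours, and 5.49, 5.48, 6.58 and 5.74 in Sca1-Cre tumours. In pre-tumour spleens Kdr was at 6.64, 6.04 and 6.06, and in wild-type spleens at 5.68, 6.34 and 6.03. Every group overlapped with wild type, and the values of the Mb1-Cre tumours spanned those of all other groups. Kdr averaged 6.42 ± 0.98 in Mb1-Cre tumours and 6.02 ± 0.33 in wild type (SD, n = 5 and n = 3), a difference of 0.41 ± 0.42 (SE), and 0.03 ± 0.31 without replicate 2. Tek, the receptor for angiopoietins, had levels of 4.27, 4.64, 4.42 and 4.27 in Aid-Cre tumours, 4.55, 5.17, 4.27, 4.30 and 4.40 in Mb1-Cre tumours, and 4.14, 4.17, 4.19 and 4.11 in Sca1-Cre tumours. It was at 4.09, 4.24 and 4.04 in pre-tumour spleens and at 4.08, 4.18 and 4.35 in wild-type spleens. All Aid-Cre and all Mb1-Cre tumours were above all Sca1-Cre tumours, at levels near background. The differences were 0.25 ± 0.15 for Aid-Cre minus Sca1-Cre tumours (limma adjusted p = 0.493), with an SE of 0.09 without Mb1-Cre tumour replicate 2 (limma adjusted p = 0.269), and 0.39 ± 0.14 for Mb1-Cre minus Sca1-Cre tumours (limma adjusted p = 0.192), or 0.23 ± 0.09 without replicate 2. Tie1, the partner receptor of Tek, had levels of 5.25, 5.39, 4.90 and 5.04 in Aid-Cre tumours, 5.14, 5.78, 4.87, 5.24 and 5.38 in Mb1-Cre tumours, and 4.89, 4.73, 5.29 and 5.11 in Sca1-Cre tumours. Tie1 was at 5.39, 5.25 and 4.96 in pre-tumour spleens and at 4.89, 5.29 and 5.29 in wild-type spleens. The groups of Tie1 overlapped throughout, and its difference from wild type was 0.12 ± 0.18 in Mb1-Cre tumours, and 0.00 without replicate 2.

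Eng (endoglin) is a co-receptor for TGF-beta family ligands. Its levels were 6.57, 6.78, 5.81 and 5.72 in Aid-Cre tumours, 6.90, 8.0, 6.23, 6.97 and 7.68 in Mb1-Cre tumours, and 6.14, 6.42, 6.71 and 5.23 in Sca1-Cre tumours. Eng was at 6.12, 5.85 and 6.62 in pre-tumour spleens and at 6.42, 6.37 and 6.57 in wild-type spleens. In 4 of 5 Mb1-Cre tumours Eng was above every wild-type and every Sca1-Cre spleen, and replicate 3 was below all wild-type spleens. Eng was 1.03 ± 0.35 (2.04-fold) higher on average in Mb1-Cre than in Sca1-Cre tumours, which was the largest difference of the 10 genes in the 9 comparisons, and it was not called (limma adjusted p = 0.156). Without replicate 2 it was 0.82 ± 0.34 (limma adjusted p = 0.258). Against wild type Eng was at 0.70 ± 0.38 in Mb1-Cre tumours (limma adjusted p = 0.496), and at 0.49 ± 0.37 without replicate 2. The mean level of 15 macrophage and red pulp genes was 8.91, 8.98, 7.60, 8.04 and 8.22 in the Mb1-Cre tumours. It was 7.83, 7.98, 8.43 and 7.07 in the Sca1-Cre tumours and 7.32 to 8.10 in wild type. The mean level of 8 erythroid genes was 7.26 to 11.26 in the Mb1-Cre tumours. It was 8.03 to 10.48 in the Sca1-Cre tumours and 9.5 to 10.2 in wild type. The part of either list in the Eng values was not tested.

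Egfl7, a matrix-bound protein secreted by endothelial cells, had levels of 6.51, 6.61, 6.18 and 6.28 in Aid-Cre tumours, 6.46, 6.83, 5.98, 6.33 and 6.21 in Mb1-Cre tumours, and 5.82, 5.95, 6.24 and 5.90 in Sca1-Cre tumours. In pre-tumour spleens it was at 6.13, 6.29 and 6.05, and in wild-type spleens at 6.31, 6.48 and 6.18. Of the Sca1-Cre tumours 3 were below all pre-tumour and all wild-type spleens, and replicate 3 overlapped with both. The difference of Egfl7 was -0.35 ± 0.16 for Sca1-Cre tumours minus wild type (limma adjusted p = 0.435) and 0.42 ± 0.15 for Aid-Cre minus Sca1-Cre tumours (limma adjusted p = 0.245), neither of them called. Without Mb1-Cre tumour replicate 2 the limma adjusted p was 0.349 for the first and 0.185 for the second. Emcn (endomucin), a sialomucin of capillary and venous endothelium, was at 3.81, 3.76, 3.85 and 3.60 in Aid-Cre tumours, 3.99, 5.21, 3.60, 3.83 and 3.79 in Mb1-Cre tumours, and 3.68, 3.82, 3.58 and 3.64 in Sca1-Cre tumours. Emcn was at 3.77, 3.80 and 3.94 in pre-tumour spleens and at 3.84, 3.94 and 4.10 in wild-type spleens. All Sca1-Cre tumours were below all wild-type spleens, by gaps that were small beside the 5.21 of Mb1-Cre tumour replicate 2. The difference of Emcn was -0.28 ± 0.25 for Sca1-Cre tumours minus wild type (limma adjusted p = 0.744), and -0.28 ± 0.10 without Mb1-Cre tumour replicate 2 (limma adjusted p = 0.308), an array that enters this comparison through the spread shared by all groups. For Mb1-Cre tumours minus wild type it was 0.12 ± 0.24, and -0.16 ± 0.10 without replicate 2, so that its sign turned with that array.

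The other 4 genes encode proteins of the contacts between endothelial cells. Cdh5, the cadherin of endothelial adherens junctions, had levels of 5.36, 6.87, 5.83 and 5.45 in Aid-Cre tumours, 6.73, 8.59, 6.01, 5.74 and 6.85 in Mb1-Cre tumours, and 6.34, 5.78, 5.66 and 5.96 in Sca1-Cre tumours. It was at 6.62, 6.62 and 6.75 in pre-tumour spleens and at 6.01, 6.17 and 6.17 in wild-type spleens. The 3 pre-tumour spleens were above all wild-type spleens and above all Sca1-Cre tumours, and both tumour lines with B cell drivers straddled wild type. Cdh5 was at 0.55 ± 0.52 for pre-tumour minus wild type (limma adjusted p = 0.930) and at -0.73 ± 0.49 for Sca1-Cre tumour minus pre-tumour (limma adjusted p = 0.851). Without Mb1-Cre tumour replicate 2 the SE was 0.34 for the first (limma adjusted p = 0.903) and 0.32 for the second (limma adjusted p = 0.859). For Mb1-Cre tumours minus wild type it was 0.67 ± 0.47 (limma adjusted p = 0.602), and 0.22 ± 0.32 without replicate 2.

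Cldn5, a claudin of endothelial tight junctions, had levels of 4.82, 5.12, 4.71 and 5.15 in Aid-Cre tumours, 5.24, 5.71, 5.05, 4.89 and 5.10 in Mb1-Cre tumours, and 4.78, 4.98, 4.86 and 4.95 in Sca1-Cre tumours. It was at 5.06, 5.01 and 5.36 in pre-tumour spleens and at 4.95, 5.13 and 5.01 in wild-type spleens. All Sca1-Cre tumours were below all pre-tumour spleens, at -0.25 ± 0.16 on average (limma adjusted p = 0.851), and ± 0.12 without Mb1-Cre tumour replicate 2 (limma adjusted p = 0.859). Esam, an adhesion molecule of endothelial cells and platelets, was at 4.90, 5.04, 4.64 and 5.05 in Aid-Cre tumours, 4.98, 5.01, 4.66, 4.68 and 5.16 in Mb1-Cre tumours, and 4.87, 4.51, 4.83 and 4.60 in Sca1-Cre tumours. Esam was at 5.12, 4.81 and 4.62 in pre-tumour spleens and at 4.72, 4.87 and 4.91 in wild-type spleens. Its groups overlapped throughout, and with a range of 0.65 over the 19 arrays it varied least of the 10 genes.

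Pecam1, an adhesion molecule of endothelium, leukocytes and platelets, was at 8.74, 7.82, 10.04 and 10.06 in Aid-Cre tumours, 9.18, 9.42, 8.99, 8.28 and 8.71 in Mb1-Cre tumours, and 9.69, 9.09, 8.33 and 8.53 in Sca1-Cre tumours. It was at 9.54, 9.66 and 9.74 in pre-tumour spleens and at 9.53, 9.87 and 9.27 in wild-type spleens. The Aid-Cre tumours held both the highest and the lowest level, on either side of wild type. The mean level of 9 B cell genes in the same Aid-Cre arrays was 9.68, 7.20, 11.24 and 11.11, in the same order from low to high except that the 2 highest arrays changed places, and its part in the Pecam1 values was not tested. Pecam1 was at -0.64 ± 0.43 in Mb1-Cre tumours (limma adjusted p = 0.582) and at -0.65 ± 0.45 in Sca1-Cre tumours (limma adjusted p = 0.641), against wild type. Without replicate 2, all 4 Mb1-Cre tumours were below all wild-type spleens, at -0.77 ± 0.45 (limma adjusted p = 0.530).

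The comparisons with wild type asked how the spleens with HGAL differed from normal ones. In Aid-Cre tumours 0 of 10 genes were called, beside 0.018% of all genes, and 0 passed at an unadjusted p under 0.05, beside 8.3% of all genes, or 8.25% without Mb1-Cre tumour replicate 2, where 0 passed as well. Their median difference was -0.05, with 4 above 0 and 6 below. In Mb1-Cre tumours 0 of 10 were called, beside 0.0% of all genes, and 1 passed unadjusted, which was Tek (11.3% of all genes). Here 9 of 10 genes were above 0, with Pecam1 the exception, and the median was 0.15. Without replicate 2, 0 of 10 were again called (0.0% of all genes), 7 were above 0, the median was 0.03 and 0 passed unadjusted (11.1% of all genes). In that setting Pecam1 was the 1 gene that did not overlap, beside 7.27% of all genes lower without overlap. In Sca1-Cre tumours 0 of 10 were called, beside 0.0406% of all genes, and 1 passed unadjusted, which was Egfl7 (11.4% of all genes). Without Mb1-Cre tumour replicate 2, 2 passed unadjusted, Egfl7 and Emcn (11.2% of all genes). All 10 differences were below 0, with a median of -0.19, and Emcn was the 1 gene without overlap, beside 5.86% of all genes. In pre-tumour spleens 0 of 10 were called, beside 0.00451% of all genes, 0 passed unadjusted (5.47% of all genes, and 0 beside 5.33% without Mb1-Cre tumour replicate 2) and the median was 0.03. Cdh5 was the 1 gene without overlap there, beside 8.35% of all genes. For all 13 tumours 0 of 10 were called, beside 0.018% of all genes, and 0 passed unadjusted (8.93% of all genes). The median was -0.01 with 5 genes below 0, and -0.06 with 9 below 0 once replicate 2 was left out, when Emcn passed unadjusted (9.2% of all genes). Without both arrays with the most pancreatic transcripts, 0 of 10 genes were called in any of these comparisons. The medians were then 0.01 for Aid-Cre, 0.08 for Mb1-Cre and -0.13 for Sca1-Cre tumours, 0.07 for pre-tumour spleens and -0.03 for all tumours. Over all genes the median difference lay between -0.01 and 0.01 in each of the 9 comparisons. These comparisons with wild type share the same 3 spleens.

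**Figure D2:**
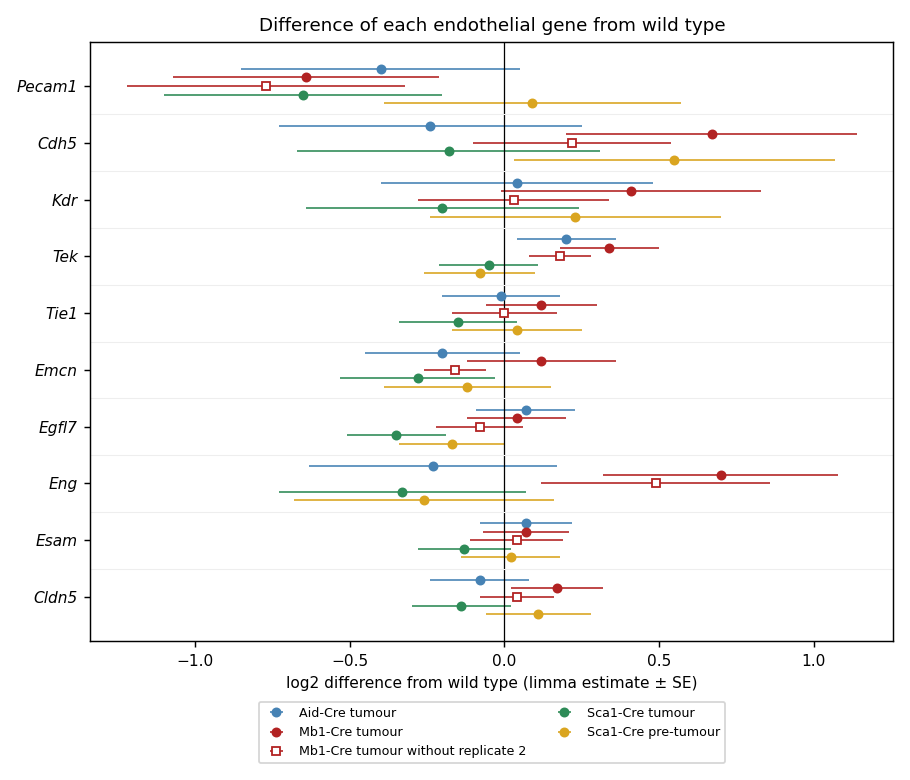
Fitted log2 difference from wild type (horizontal axis, limma estimate ± SE) of each endothelial gene (rows) in the 3 tumour groups and in pre-tumour spleens. Open squares give the Mb1-Cre tumours without replicate 2, which lie closer to 0 than the filled circles for Cdh5, Kdr, Tek and Eng, while all 10 Sca1-Cre tumour estimates lie below 0.

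Of the 5 groups, Sca1-Cre tumours had the lowest mean for 8 of the 10 genes, the exceptions being Cdh5, lowest in Aid-Cre tumours, and Tek, lowest in pre-tumour spleens. For Pecam1 the means were 8.91 in Sca1-Cre and 8.92 in Mb1-Cre tumours, and without replicate 2 the Mb1-Cre tumours were lowest at 8.79, which left 7 genes. In Sca1-Cre tumours against pre-tumour spleens of the same genotype, 0 of 10 genes were called, beside 0.0% of all genes, and 0 passed unadjusted (5.34% of all genes). Without Mb1-Cre tumour replicate 2, which entered here through the shared spread alone, Cdh5 passed unadjusted (5.39% of all genes). The median difference was -0.19 with 9 of 10 below 0, and Cdh5 and Cldn5 did not overlap, beside 4.51% of all genes lower without overlap. In Aid-Cre against Mb1-Cre tumours 0 of 10 were called, beside 0.0451% of all genes, and 2 passed unadjusted, Cdh5 and Eng, both lower (4.32% of all genes). The median was -0.19. Without replicate 2 it was 0.00, again with 0 called (0.00902% of all genes), and Eng alone passed unadjusted (4.12% of all genes). In Aid-Cre against Sca1-Cre tumours 0 of 10 were called, beside 0.0451% of all genes, and 1 passed unadjusted, which was Egfl7, higher (5.69% of all genes). Without Mb1-Cre tumour replicate 2, Tek passed as well (5.63% of all genes). The median was 0.17 with 9 of 10 above 0, and Tek did not overlap, beside 3.05% of all genes higher without overlap. In Mb1-Cre against Sca1-Cre tumours 0 of 10 were called, beside 0.0406% of all genes, and all 10 were above 0 with a median of 0.39. Here 4 genes passed unadjusted in the higher direction, namely Tek, Egfl7, Eng and Cldn5, beside 7.13% of all genes. Without replicate 2 the median was 0.20 with 9 of 10 above 0, 0 were called (0.0541% of all genes) and 3 passed unadjusted, Tek, Egfl7 and Eng, beside 6.54% of all genes. Tek was the gene without overlap, beside 2.43% of all genes higher without overlap.

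The order of the 5 group means was mostly within the spread. Mb1-Cre tumours had the highest mean for 7 of 10 genes, Aid-Cre tumours for 2 (Egfl7 and Esam) and pre-tumour spleens for 1 (Pecam1). Of the 40 gaps between neighbouring means, 4 were larger than the larger of the SDs of the neighbours. These were Cdh5 in pre-tumour spleens over wild type, Tek in Aid-Cre tumours over wild type, Egfl7 in wild type over pre-tumour spleens and Eng in Mb1-Cre tumours over wild type. Without Mb1-Cre tumour replicate 2, pre-tumour spleens had the highest mean for 5 genes, Aid-Cre tumours for 3, and Mb1-Cre tumours and wild type for 1 each. Then 1 of 40 gaps was larger than the larger SD, that of Tek in Mb1-Cre tumours over wild type.

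Mb1-Cre tumour replicate 2 had the highest level of 19 arrays for 8 of the 10 genes, where it was highest for 4.37% of all genes. The exceptions were Pecam1, where it ranked 9, and Esam, where it ranked 5. No other array was highest for more than 1 of the 10. Cdh5 was 2.26 (4.79-fold) above the mean of the other 4 Mb1-Cre tumours, Kdr 1.89 (3.69-fold), Emcn 1.40 (2.64-fold) and Eng 1.05 (2.07-fold). The gaps of Tek, Cldn5, Pecam1, Tie1, Egfl7 and Esam were 0.79, 0.64, 0.63, 0.62, 0.58 and 0.14. The same array was highest of 19 for 12 of 29 other endothelial genes, among them the capillary diaphragm protein Plvap, 2.39 above the other 4 Mb1-Cre tumours, and the endothelial phosphatase Ptprb, 1.48 above them. The median gap of those 29 genes was 0.27, and some were below the other 4 tumours, such as the transcription factor Tal1 at -0.51, the clotting protein Vwf at -0.47 and the adhesion molecule Selp at -0.28. It was highest for 5 of 11 sinusoidal genes, with the scavenger receptor Stab2 at 1.80 above the others, for 3 of 12 mural cell genes, for 2 of 12 fibroblastic stroma genes and for 7 of 15 macrophage genes. For megakaryocyte and platelet genes it was highest in 0 of 9 and for proliferation genes in 0 of 9, beside 4.37% of all genes. B cell genes were highest of 19 there in 0 of 9, and highest of the 5 Mb1-Cre tumours in 8 of 9, beside 17.9% of all genes. The median gap was 0.86 for B cell genes and 0.81 for macrophage genes, against 0.72 for the 10 endothelial genes. Exocrine pancreas genes were highest there in 10 of 11, with Ctrc the exception and a median gap of 3.57, and the enzymes Cpb1 and Ctrb1 were 4.95 and 4.30 above the others. Wild-type replicate 2, next highest in pancreas genes, was highest of 19 for 0 of the 10 endothelial genes. The mean level of the 10 was 5.86 in that spleen, against 5.64 and 5.79 in the other wild-type spleens. The part of pancreatic tissue in the endothelial values of Mb1-Cre tumour replicate 2 was not tested.

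**Figure D3:**
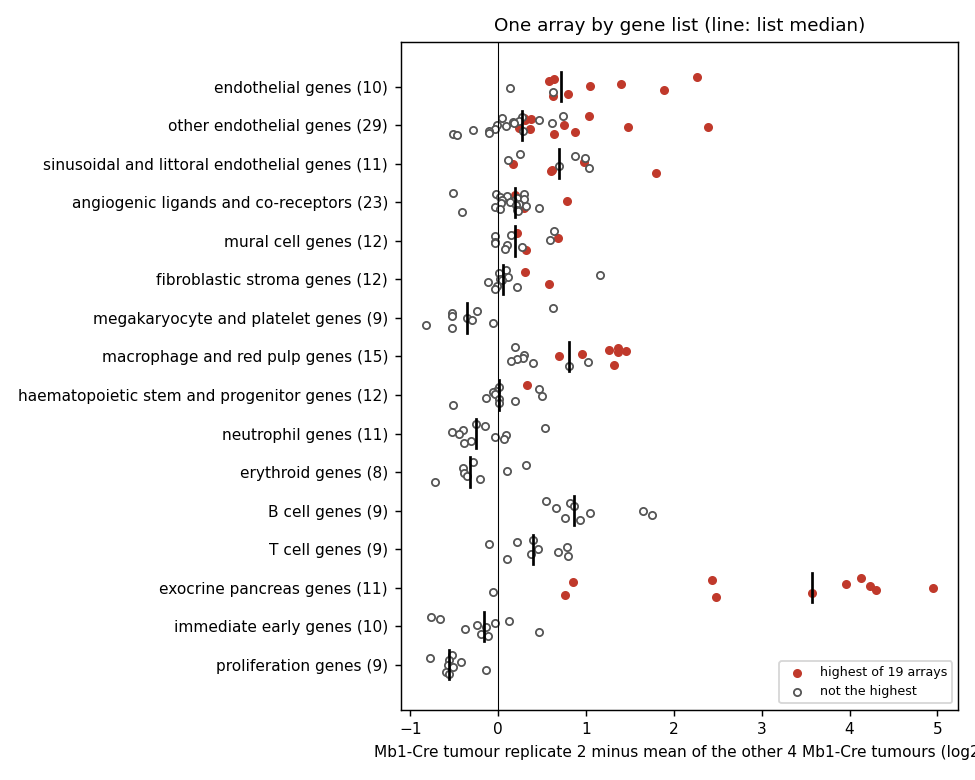
Log2 gap between Mb1-Cre tumour replicate 2 and the mean of the other 4 Mb1-Cre tumours (horizontal axis) for each gene (circles) of each list (rows, with the number of measured genes). Filled circles are genes with the highest level of 19 arrays in that array. Black lines are list medians, 0.72 for the 10 endothelial genes, 0.81 for macrophage, 0.86 for B cell and 3.57 for exocrine pancreas genes.

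Other lists of the vascular bed gave 0 called genes in each of the 9 comparisons. Of 29 other endothelial genes, 27 were above 0 in Mb1-Cre tumours against wild type, with a median of 0.19, and 5 passed unadjusted as higher (5.13% of all genes) and 1 as lower (6.2%). Without replicate 2, 24 of 29 were above 0 with a median of 0.11, and 2 passed unadjusted as higher (5.05% of all genes) and 1 as lower (6.07%). Erg, an ETS factor of endothelium and also of blood progenitors, was 1.81 ± 0.54 above wild type (limma adjusted p = 0.254), and 1.72 without replicate 2. The lectin-like receptor Cd93 was at 0.59 ± 0.25 (limma adjusted p = 0.397). In Mb1-Cre against Sca1-Cre tumours 28 of 29 were above 0, with 10 unadjusted passes, all higher (7.13% of all genes), and without replicate 2 they were 26 of 29, with 7 passes (6.54%). In Aid-Cre tumours 18 of 29 were above 0 against wild type, in Sca1-Cre tumours 8 and in pre-tumour spleens 19. The mean of the 12 haematopoietic stem and progenitor genes, a list that shares Erg and Tal1 with the endothelial one, was 6.31, 6.59, 6.35, 6.69 and 6.75 in Mb1-Cre tumours, against 6.02, 6.01 and 6.23 in wild type. Its part in the Erg values was not tested.

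Among 11 genes of sinusoidal endothelium, the hyaluronan receptor Lyve1 came closest to the threshold, at 0.43 ± 0.09 in Mb1-Cre over Sca1-Cre tumours (limma adjusted p = 0.0617), and at 0.40 without replicate 2. Mean Lyve1 was 5.16 for Mb1-Cre tumours, against 4.73 for Sca1-Cre tumours, the second of them near background. Stab2, a scavenger receptor for hyaluronan, averaged 6.57 for Mb1-Cre tumours, against 5.53 for Sca1-Cre tumours. The difference was 1.04 ± 0.40 (limma adjusted p = 0.20), and 0.68 without replicate 2. Wild-type spleens averaged 6.53 for Stab2, and the Sca1-Cre tumours did not pass against them (limma adjusted p = 0.421). In Mb1-Cre over Sca1-Cre tumours 7 of the 11 genes were above 0 with a median of 0.27, 5 passed unadjusted as higher (7.13% of all genes) and 1 as lower (10.4%). The lower gene was Ehd3, a protein of endocytic recycling, named after its value was seen, at -0.96 ± 0.43 (limma adjusted p = 0.258). Without replicate 2 the median was 0.15, with 2 passes as higher, Lyve1 and Gpr182 (6.54% of all genes), and 2 as lower, Ehd3 and Maf (9.45%). Against wild type, 9 of 11 were above 0 in Mb1-Cre tumours, and 4 of 11 without replicate 2. In pre-tumour spleens 10 of the 11 sinusoidal genes were above 0 against wild type, with a median of 0.13 and 0 unadjusted passes. The part of blood cells in the values of these 11 genes was not tested.

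Among 23 angiogenic ligands and co-receptors, Acvrl1, the endothelial receptor that works with Eng, was 0.97 ± 0.22 higher on average in Mb1-Cre tumours than in wild type (limma adjusted p = 0.176), and 1.07 without replicate 2. In replicate 2, the array with the highest Eng, Acvrl1 was at 6.77, below the mean of 7.27 in the other Mb1-Cre tumours. Nrp1, a VEGF co-receptor, was at 0.80 ± 0.21 in Sca1-Cre tumours (limma adjusted p = 0.193). The Kdr ligand Vegfa averaged 6.23 in Sca1-Cre tumours, 6.09 in pre-tumour spleens and 7.01 in wild type, differences of -0.78 ± 0.31 (limma adjusted p = 0.347) and -0.92 ± 0.33 (limma adjusted p = 0.837) from wild type. None of the 3 was called, and they do not stand for the list. The mean level of all 23 genes was 5.94 in wild type, 5.94 in Sca1-Cre tumours and 5.89 in pre-tumour spleens. It was 5.88 in Aid-Cre tumours and 6.02 in Mb1-Cre tumours, or 5.99 without replicate 2. Of 12 mural cell genes, 10 were above 0 in Aid-Cre tumours, with the adhesion molecule Mcam at 0.66 (limma adjusted p = 0.438).

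**Figure D4:**
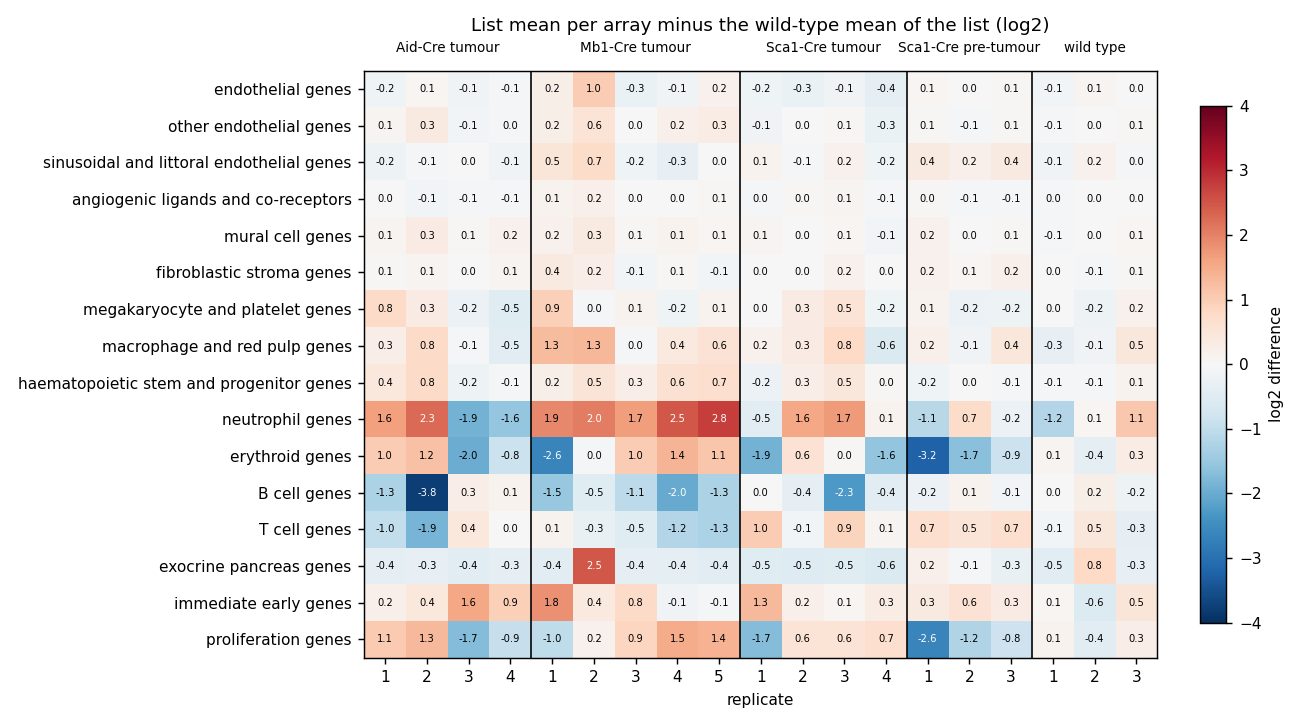
Mean log2 level of each gene list per array minus the wild-type mean of that list (colour and printed value), with lists in rows and the replicates of the 5 groups in columns. The 10 endothelial genes stand highest in Mb1-Cre tumour replicate 2, the column in which exocrine pancreas genes stand 2.47 above wild type, while B cell genes are lowest in Aid-Cre tumour replicate 2.

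Across arrays the 10 genes moved together in part, and more so with Mb1-Cre tumour replicate 2 than without. Each gene's deviation from its group mean was set against that of each other gene over the 19 arrays, which share group means and sampled tissue. The median Pearson r over 45 pairs was 0.53, with 41 pairs above 0 and 27 above 0.5. Over the 18 arrays without that replicate the median was 0.26, with 35 pairs above 0 and 6 above 0.5. Pecam1 stood apart from the rest: without the replicate its r was -0.62 with Tie1, -0.54 with Egfl7 and -0.44 with Eng. Among non-member genes the pattern most like the mean deviation of the 10 was that of Ptprb (r = 0.94), the coagulation inhibitor Tfpi (0.93), Prex2 (0.93), Sox18 (0.92) and Stab2 (0.91) over 19 arrays. Over 18 arrays the nearest were Stab2 (r = 0.90), Ptprb (0.89), Ptprm (0.87), Defb4 (0.86) and the macrophage receptor Mertk (0.85), so that Ptprb and Stab2 were in both sets of 5. Of single genes, Tk2 was nearest to Pecam1 (r = 0.98), Siglec1 to Kdr (0.94), Col14a1 to Emcn (0.92), Tfpi to Cdh5 (0.90), Cav1 to Tek (0.89) and Igfals to Esam (0.89). Ezhip was nearest to Eng (0.87), Ldb2 to Cldn5 (0.87), Osmr to Egfl7 (0.85) and Cdc42ep1 to Tie1 (0.81). These single genes were the nearest over 19 arrays. Over the 18 arrays Igfals stayed nearest to Esam (r = 0.89), and a different gene was nearest to each of the rest. There the r of Tk2 with Pecam1 was still 0.98. That of Col14a1 with Emcn fell to 0.61, of Cav1 with Tek to 0.63 and of Tfpi with Cdh5 to 0.73. The r values of the nearest genes are the highest among all genes and describe these arrays alone.

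**Figure D5:**
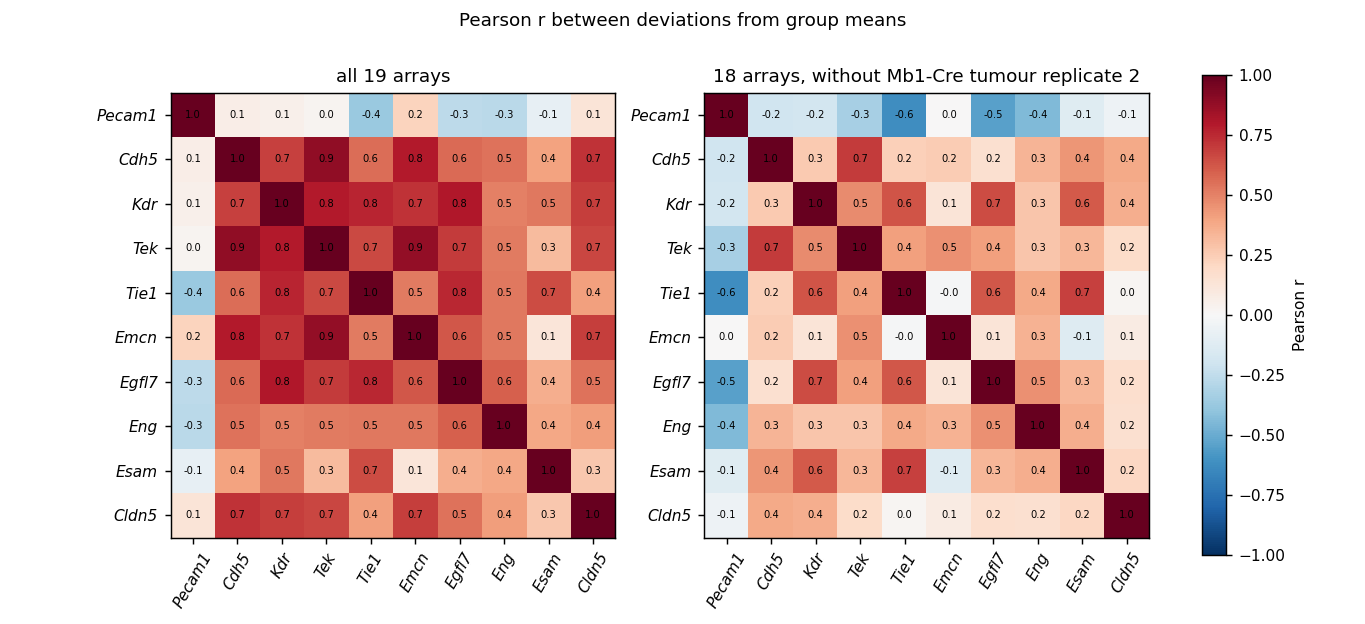
Pearson r between the deviations of each pair of endothelial genes from their group means, over all 19 arrays (left) and over the 18 arrays without Mb1-Cre tumour replicate 2 (right), with colour and printed value giving r. The median over the 45 pairs is 0.53 on the left and 0.26 on the right, and the Pecam1 row holds most of the negative values.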

How the data were processed

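RNA of 19 spleens was measured on Affymetrix arrays. Per the submitters' processing notes, the authors used RMA and the oligo package (no version named) to make the deposited log2 levels per probe set, which were used unaltered. Of 41345 probe sets, 23521 carried 1 symbol, 1814 several and 16010 none; where several carried the same symbol, the one with the highest mean was kept, which left 22180 genes. Groups came from the titles. One limma 3.58.1 fit of group means in R 4.3.3 over all 19 arrays gave 9 two-sided contrasts, adjusted by Benjamini-Hochberg, with the 3 tumour groups weighted equally in the contrast of all tumours. The fit was tested on simulated data. Likeness is the Pearson correlation of deviations from group means.

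All 10 genes are named. From other lists the text names at most 4 genes per list and comparison between groups, those with the smallest p. Ehd3 with all arrays is an exception, named after its value was seen. Genes of other lists named for Mb1-Cre tumour replicate 2 were picked by their gap from the other Mb1-Cre tumours. For likeness it names the 5 genes nearest to the mean of the 10 and the gene nearest to each, leaving out predicted genes, small RNAs, olfactory receptors and receptor segments. The 10 genes and the other lists were chosen with earlier results of these data known. Alternatives were quantile normalization, median centring, a dim-gene filter, averaging of a gene's probe sets, only the compared groups, a trended robust prior, the replicate number as a block, a sex covariate, each array left out in turn, and both arrays with the most pancreatic transcripts left out.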

Additional observations from a re-analysis of the deposited data

Results flagged for a closer look

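Emcn was 5.21 in Mb1-Cre tumour replicate 2 and 3.60 to 3.99 in the other 4 Mb1-Cre tumours. The gap between this array and the nearest of the others, divided by the range of the group, was 0.757, above Dixon's critical value of 0.71 for 5 samples. It was the 1 of 30 combinations of gene and tumour group in which the highest or lowest array passed that value, and chance passes about 1 in 20. Exocrine pancreas genes were at their highest in the same array, and their part in the Emcn value was not tested.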

How the results depend on the processing

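In the 29 alternatives, 19 of which left out 1 array each, 0 of the 10 endothelial genes were called in any of the 9 comparisons, and the smallest limma adjusted p was 0.105, for Eng in Mb1-Cre against Sca1-Cre tumours without Sca1-Cre tumour replicate 3. All 253 medians of the 10 genes stayed within 0.28, the SD of their mean within groups, of the reported value. That bound is wide, as every reported median but the 0.39 of Mb1-Cre minus Sca1-Cre tumours was smaller in size. A median could therefore vanish or change sign within it. With 1 array left out, the median for Mb1-Cre tumours minus wild type ran from 0.03, without Mb1-Cre tumour replicate 2, to 0.24, and that for Mb1-Cre minus Sca1-Cre tumours from 0.20, without the same array, to 0.47. For Sca1-Cre tumours minus wild type it ran from -0.31 to -0.13 and for Sca1-Cre tumours minus pre-tumour spleens from -0.27 to -0.18. The medians for Aid-Cre tumours (-0.14 to 0.03), pre-tumour spleens (-0.07 to 0.07) and all tumours (-0.07 to 0.05) minus wild type took either sign. The dim filter left 14377 genes and took out Emcn and Tek, both near background. Over all genes the number called for Aid-Cre minus Sca1-Cre tumours was 10, and 0 to 229 under the alternatives. For Mb1-Cre minus Sca1-Cre tumours it was 9, and 0 to 121, and for Mb1-Cre tumours minus wild type 0, and 0 to 61. For Aid-Cre minus Mb1-Cre tumours it was 10, and 0 to 27, for Sca1-Cre tumours minus wild type 9, and 0 to 18, and for Aid-Cre tumours and for all tumours minus wild type 4, and 0 to 9. For same-numbered arrays of different groups, the deviations had a median r of -0.0524 over 33 pairs, from -0.5337 to 0.4094, with 8 over 0.1. Arrays with different numbers had a median r of 0.0101. The numbers were therefore not taken to pair the samples, and a batch shared by some numbers was not tested. With the replicate number as a block, 0 of the 10 genes were called, and the medians were 0.23 for Mb1-Cre tumours minus wild type and 0.42 for Mb1-Cre minus Sca1-Cre tumours.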
